A study of Mus musculus with 46 samples.

Results

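The proteasome genes described here are the 50 of 22800 genes of the count table whose symbols start with Psma, Psmb, Psmc, Psmd, Psme, Psmf or Psmg and a number, pseudogene names left out. The cells are 46 oriens-lacunosum moleculare (OLM) interneurons, dendrite-targeting inhibitory neurons of the hippocampus, from mice aged postnatal day 21 to 30. Each library is the cytosol of 1 neuron drawn into a patch pipette. The labels give 23 cells of an Htr3a Cre driver line and 23 of an Sst Cre driver line (Cre under the serotonin receptor 3a or the somatostatin gene), all typed as OLM and passed in quality control. They give no further allele, treatment or animal, so each line was treated as 1 sample and nothing between the lines was tested. SDs below are between cells. Intervals below cover the counting of cells or reads only and do not measure the spread between animals.

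The 26S proteasome degrades proteins that carry ubiquitin chains. Its 20S core is a barrel in which rings of alpha subunits (Psma genes) gate a chamber formed by rings of beta subunits (Psmb genes), and 3 of the beta subunits, Psmb5, Psmb6 and Psmb7, cut the substrate. The 19S cap binds ubiquitin, unfolds the substrate with a ring of ATPases (Psmc genes) and feeds it into the core, with the help of non-ATPase subunits (Psmd genes). Immune cells, and other cells under interferon, are known for replacing the catalytic subunits with Psmb8, Psmb9 and Psmb10, the immunoproteasome. In neurons the proteasome is known for its part in turnover at synapses.

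By these roles, 31 of the 50 genes are constitutive subunits: 7 alpha, 7 beta, 6 ATPase and 11 non-ATPase genes. The other genes are 5 tissue-specific subunits (Psmb8, Psmb9, Psmb10, the thymic Psmb11 and the testis alpha subunit Psma8), 6 activators and inhibitors (Psme1, Psme2, its copy Psme2b, Psme3, Psme4 and Psmf1) and 7 assembly chaperones (Psmg1 to Psmg4, Psmd5, Psmd9 and Psmd10). The last, Psmc3ip, is a recombination factor that shares only the name.

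Libraries held 3391830 to 31386400 reads assigned to genes, with 3225 to 12693 genes read per cell. All 11 OLM and GABAergic markers had reads, and their summed level, in counts per 1000000 reads (CPM), was 6076 to 106689 for Htr3a-line cells and 4175 to 83131 for Sst-line cells. Lowest in reads of Gad1, an enzyme that makes GABA, were Htr3a line replicates 4 and 20, which held 4 and 24 where the median cell held 15063.5. Replicate 4 also had the highest sums of oligodendrocyte markers (13314 CPM) and astrocyte markers (1383 CPM) of the 46 cells, whose medians were 157 and 61.3 CPM. The 9 microglial markers (among them C1qa, Cx3cr1 and Tmem119) summed to 0 to 8443 CPM for Htr3a-line cells and 0.0536 to 10876 CPM for Sst-line cells.

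Nearly every constitutive subunit was read in nearly every cell. All 31 were read in at least 39 of 46 cells, and Psma3, Psma7, Psmb1, Psmb2, Psmb6 and Psmd7 were read in all 46. Psma6, Psmb3, Psmc1, Psmc2 and Psmc5 were read in 45 cells. Psma2, Psmb5, Psmb7, Psmc3, Psmd2 and Psmd3 were read in 44 cells, and Psma1, Psma5 and Psmd4 in 43. Psmb4, Psmd1, Psmd6, Psmd8, Psmd13 and Psmd14 were read in 42, Psma4, Psmc4 and Psmd12 in 41, Psmd11 in 40 and Psmc6 in 39. Counting every proteasome gene, 42 of 50 were read in 23 or more of the 46 cells, where 31.1% of all genes of the table were.

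Outside the constitutive set, reads were found in fewer cells. The activator genes Psme1, Psme3, Psme2, Psme2b and Psme4 were read in 41, 36, 34, 33 and 26 cells, and Psmf1, an inhibitor of the core, in 30. The base chaperones Psmd5, Psmd9 and Psmd10 were read in 39, 37 and 27 cells, and Psmg4, Psmg2, Psmg3 and Psmg1, which help build the core, in 32, 21, 21 and 20. Psmc3ip was read in 20 cells. Psma8 had 0 reads in 46 cells, so a share of cells with a read of up to 6.52% is allowed. Counted by line, 46 of the 50 genes were read in 12 or more Htr3a-line cells and 41 in 12 or more Sst-line cells, or 92.0% and 82.0%, where 33.6% and 27.4% of all genes were.

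Of 1426 values (31 subunits in 46 cells), 78 were 0 (5.47%), and 57 of these 78 lay in 7 cells. Those 7 cells, each with fewer than 26 of the 31 subunits, were Htr3a line replicates 4, 6, 20 and 21 and Sst line replicates 16, 17 and 21. Every subunit was read in 26 cells, 14 of the Htr3a line and 12 of the Sst line. The 7 cells had at most 5231 genes read in all, and the 26 cells had at least 5479. The 13 cells with 26 to 30 subunits overlapped the 7. Among them, Sst line replicates 19 and 15 read 29 subunits each, with 4788 and 5110 genes read. A cell that missed some subunits could hold others at a high level: in Htr3a line replicate 20, Psma1, Psma2 and Psma4 had 0 reads while the 19S subunit Psmd1 reached 1827 CPM. How far missing values follow losses of RNA in the pipette or during amplification was not tested.

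**Figure D1:**
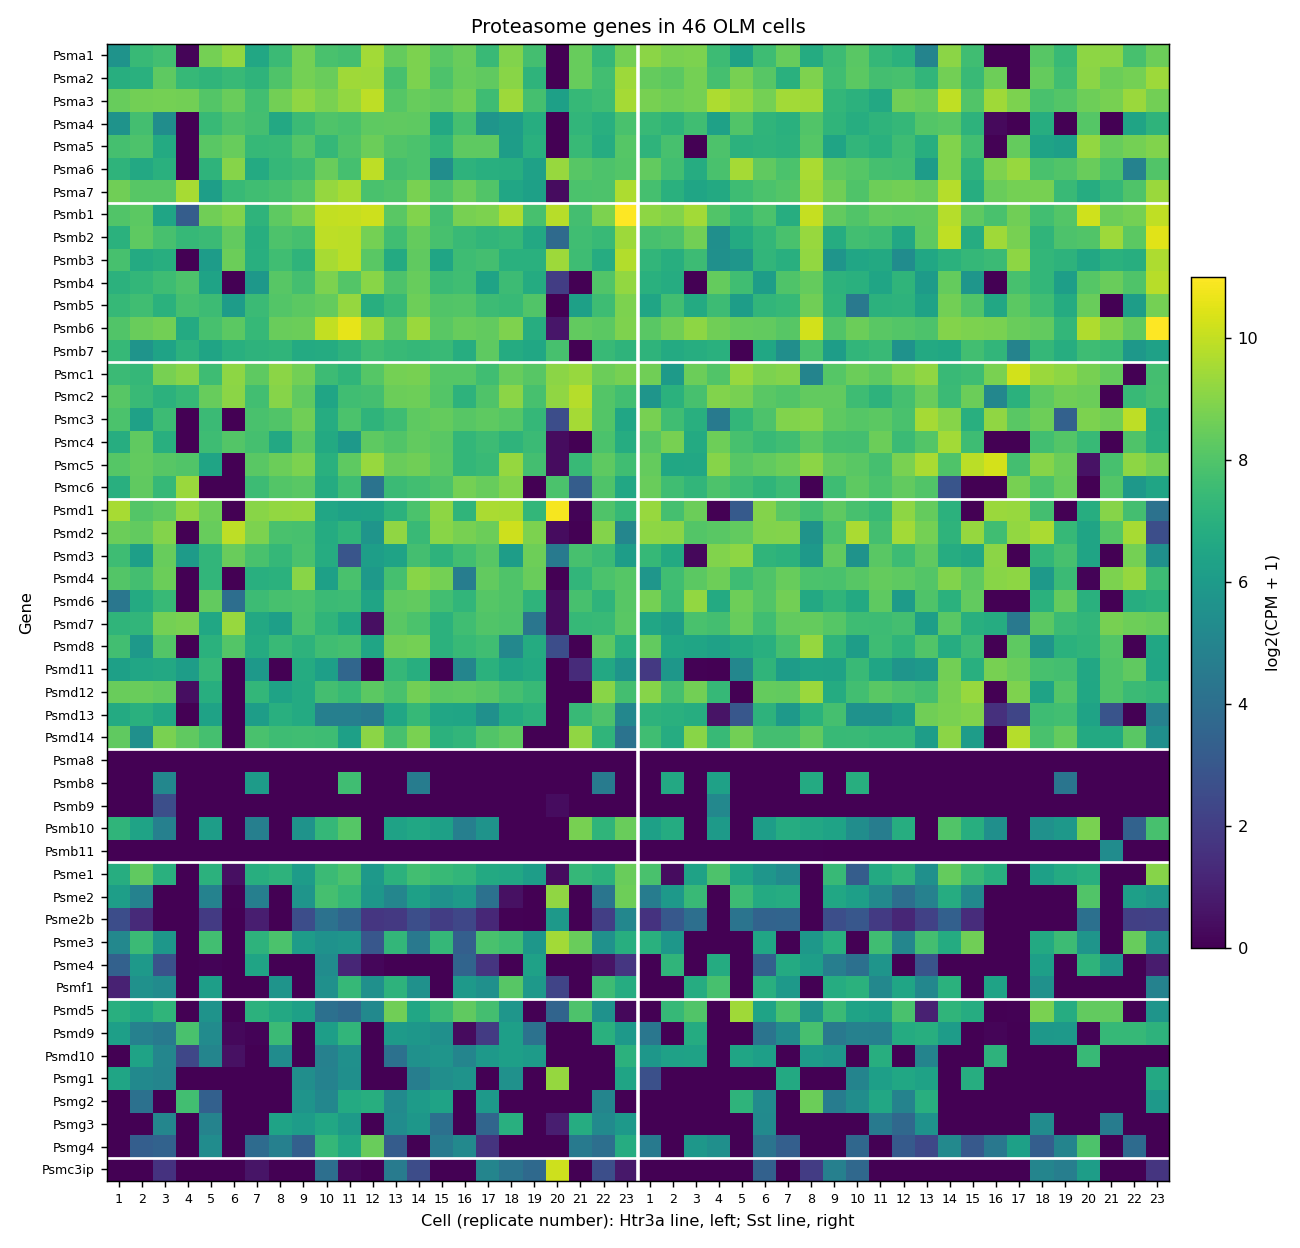
Each row is 1 of the 50 genes, grouped by role, and each column 1 of the 46 cells; colour gives log2(CPM + 1). The 31 subunits of the upper 4 blocks are read in at least 39 cells each, while Psma8 is dark in every cell and Psmb8 is read in 10.

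Summed over the 31 subunits, the proteasome took 5050 to 11263 CPM of Htr3a-line cells (median 7330, 7707 ± 1847, SD, 23 cells) and 6390 to 12437 CPM of Sst-line cells (median 7721, 8258 ± 1804, SD, 23 cells). The lines overlapped over most of this range, and their means differed by less than the SD between cells. The highest cell held 2.46 times the share of the lowest, while single subunits had SDs over the 46 cells of 0.82 (Psma3) to 2.99 (Psmc6) on the log2(CPM + 1) scale.

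Levels of different genes were compared per length, as reads per exon base scaled to a total of 1000000 per cell (TPM). Among the alpha genes, Psma6 had the highest mean level (608 TPM, cells from 0 to 1836) and Psma4 the lowest (179 TPM, 0 to 411). Among the beta genes, Psmb2 was highest (705 TPM, 24.8 to 2155) and the trypsin-like catalytic Psmb7 lowest (107 TPM, 0 to 289). Among the ATPases, Psmc5 was highest (732 TPM, 0 to 2852) and Psmc2 lowest (166 TPM, 0 to 519). Among the non-ATPases, Psmd2, a scaffold that receives ubiquitin carriers, was highest (286 TPM) and Psmd11, a lid subunit, lowest (49.6 TPM, 0 to 211). The ranges of neighbours in these orders overlapped widely.

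Highest and lowest constitutive subunit thus lay 14.7 times apart per length. Outside them, Psme1 (155 TPM), Psmg4 (144 TPM) and Psmb10 (138 TPM) had the highest mean levels per length of their groups, and Psme4 (8.74 TPM) and Psmg3 (21.3 TPM) the lowest of theirs, beside Psma8 at 0. These levels divide by all annotated exon bases of a gene. Divided instead by the transcript with the longest coding sequence, the order changed: Psmb6 became the highest subunit (988 TPM, from 638), Psma7 the highest alpha gene (637 TPM, from 287) and Psmb7 reached 208 TPM, while Psmd11 stayed lowest (72.9 TPM). For Psme2b, Psmb5 and Psma5, 78.4%, 71.7% and 61.0% of all 31-base words are shared with further annotated genes. Psme2, Psmb5-ps and Gm8394 are among these, so reads of these genes may be split, and Psme2 and Psme2b are not separate measures. For Psme2, Psmc1 and Psmd2 the share is 33.5%, 32.2% and 31.6%. For Psmb2 and Psmc5 the share is 0%.

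The balance of core and cap, taken as a ratio of mean TPM, also differed between cells. A ratio and a sum are unlike measures, so their spreads are not compared. Core subunits averaged 179 to 649 TPM per cell, cap subunits 81.7 to 445 TPM, and the ratio of both ran from 0.65 to 2.67 in 40 of 46 cells. In the other 6 cells it was above 3: 3.32 in Htr3a line replicate 12, 4.0 in Sst line replicate 20, 4.42 in Htr3a line replicate 23, 5.54 in Htr3a line replicate 11, 5.57 in Htr3a line replicate 10 and 6.28 in Sst line replicate 23. These cells, picked by the ratio, had core levels of 445 to 639 TPM and cap levels of 81.7 to 138 TPM. The other 40 cells overlapped them, with core levels of 179 to 649 TPM and cap levels of 97.7 to 445 TPM. In Sst line replicate 23, the beta genes Psmb6 and Psmb2 reached 2044 and 1467 CPM while Psmd2 was at 5.23 CPM; in Htr3a line replicate 11 the 3 genes were at 1521, 918 and 144 CPM.

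Other measures moved with this ratio. In the 6 cells, 21.6 to 46.7% of all reads came from genes with under 2000 exon bases, against 8.73 to 28.8% in the other 40. Ribosomal protein genes summed to 17454 to 80729 CPM in the 6 cells and to 4099 to 27085 CPM in the others. All 6 cells were low in Gad1, with 1634 to 7622 reads where the median cell of both lines held 15063.5. The other 40 cells overlapped them, with 4 to 64922 reads of Gad1. Core transcripts are also shorter than cap transcripts, with median lengths of 1162.5 and 1785 bases for the transcript with the longest coding sequence. With those lengths the 6 ratios were 3.97 to 7.74 and the others 0.82 to 3.09. The parts of transcript length and of low Gad1 reads in the ratio were not tested.

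**Figure D2:**
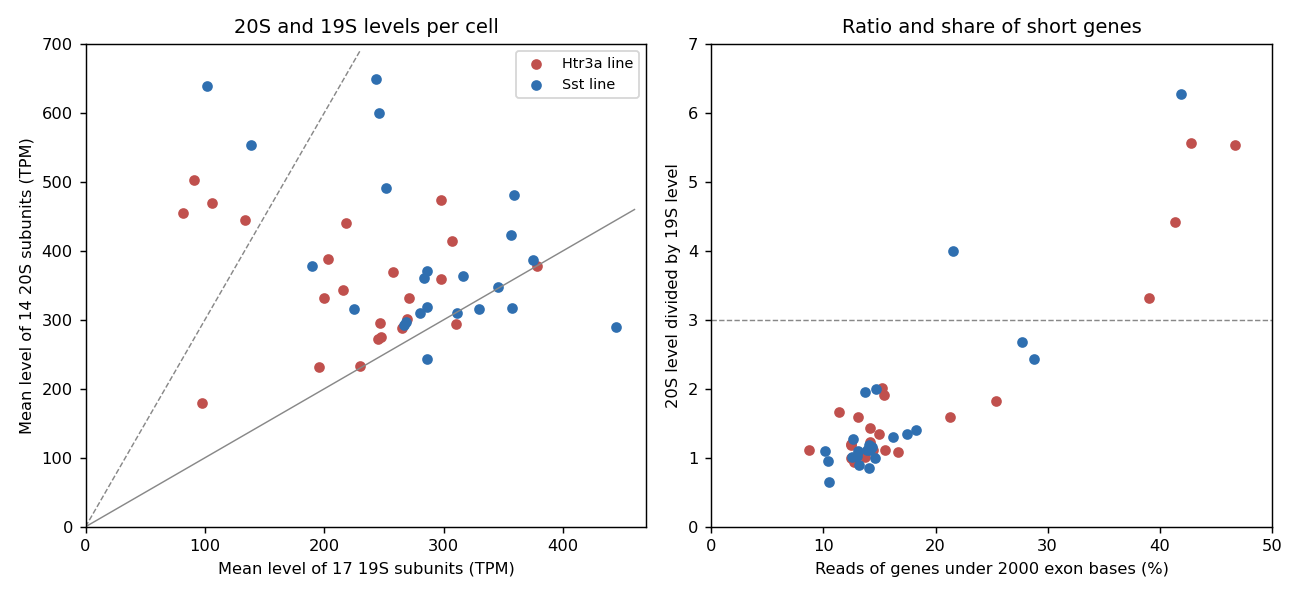
Left, mean level per length (TPM) of the 14 core subunits against that of the 17 cap subunits, 1 point per cell; the solid line marks a ratio of 1 and the dashed line a ratio of 3. Right, the ratio against the percentage of reads from genes with under 2000 exon bases: 6 cells lie above 3, and 5 of them have over 39% of such reads.

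The line difference of a gene is its mean log2(CPM + 1) over Sst-line cells minus that over Htr3a-line cells. Of the 50 genes, 47 had a mean of at least 0.5 (all but Psma8, Psmb9 and Psmb11). A difference of 1 or more was found for 4 genes higher in the Sst line, where 4.24% of 11196 genes were that much higher, and for 2 genes lower, where 14.9% of all genes were that much lower. Most subunits lie in a narrow band of levels, and among the 1223 genes with a mean from 6 to 9, 5.64% were higher and 4.17% lower by that much. The median over the 47 was 0.07 (26 higher, 21 lower), beside -0.22 for all genes tested and 0.08 for the band. The sign depended on the processing: the median was -0.03 with TMMwsp size factors, -0.07 after thinning each cell to 5000000 reads, which loses Htr3a line replicate 20, and -0.16 when Htr3a line replicate 4 was omitted. The count of 4 higher was 2 when any 1 of Htr3a line replicates 4 and 20 and Sst line replicate 22 was omitted, 2 without both of the former, and 7 without the 6 cells of high core to cap ratio, when Psmc5, Psmd2 and Psmd12 joined at 1.22, 1.09 and 1.10. The count of 2 lower was 5 without Htr3a line replicate 6 and 4 when any 1 of Htr3a line replicates 4 and 21 and Sst line replicates 1, 12, 15 and 23 was omitted.

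Within the complex, core and cap lay apart by a little. The 17 cap genes had a median of 0.32 (11 higher, 6 lower), and the 14 core genes 0.04 (8 higher, 6 lower). The non-ATPases stood at 0.65 (8 of 11 higher) and the ATPases at 0.01 (3 of 6 higher), but the medians of the log2 ratios of summed CPM were 0.08 and 0.19, in the reverse order. After thinning the cap median was 0.05 and the core median -0.20. For all 31 subunits the difference was smaller than the SD between cells of either line.

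The 3 subunits past 1 all belong to the cap. Psmd11, on chromosome 11 at 80428615 to 80473248 (GRCm38), was read in 18 Htr3a-line cells (median 72.7 CPM, highest 159) and in 22 Sst-line cells (median 89.0, highest 424), and both lines reached 0 (6.17 ± 2.43 against 4.71 ± 2.84, difference 1.46). Psmd4, a receptor for ubiquitin chains, ran from 0 to 526 CPM in Htr3a-line cells (median 217) and from 0.0642 to 613 CPM in Sst-line cells (median 277), with a difference of 1.07. Psmc3, an ATPase, ran from 0 to 742 CPM (median 228) and from 9.54 to 963 CPM (median 296), with a difference of 1.05. For Psmd4 and Psmc3, 3 cells and 1 cell of the Sst line lay above every Htr3a-line cell, and for Psmd11 8 of 23 did. With each line's CPM summed first, the log2 ratio was 0.82, 0.24 and 0.46. Leaving out Htr3a line replicate 4, in which Psmd4, Psmc3 and Psmd2 had no read, gave 0.77 for Psmd4 and 0.73 for Psmc3; the part of this cell's high glial marker sums was not tested.

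Next in size came Psmd2 (0.95), the lid subunit Psmd12 (0.80), the alpha subunit Psma6 and the ATPase Psmc5 (0.74 each). On the lower side of the constitutive set stood Psmd1, a cap scaffold (-0.81), and the ATPase Psmc2 (-0.67). By summed CPM, as log2 ratios, Psmd2 was at 0.03, Psmd12 at 0.28, Psma6 at 0.52, Psmc5 at 0.44, Psmd1 at -0.18 and Psmc2 at -0.41. The catalytic genes Psmb6, Psmb7 and Psmb5 were at 0.54, -0.31 and -0.45, beside SDs of 0.79 to 1.84.

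Among activators, Psme4 and Psme3 lay on opposite sides. Psme4, a large nuclear activator encoded on chromosome 11 at 30771726 to 30880361 (GRCm38), was read in 13 cells of each line, with a median of 0.15 CPM (highest 83.6) over Htr3a-line cells and 6.18 CPM (highest 146) over Sst-line cells. Its difference was 1.23 (2.94 ± 3.0 against 1.71 ± 2.31), and its summed level was 33.7 CPM (95% Poisson interval 33.1 to 34.3) against 12.6 CPM (12.2 to 12.98). At least 10 CPM was reached by 10 cells of the Sst line and 5 of the other. Psme3, the nuclear PA28 gamma activator, had reads in 21 cells of the Htr3a line and 15 of the Sst line and was lower in the Sst line (-1.46, 4.43 ± 3.41 against 5.89 ± 2.43), with medians of 56.3 and 67.4 CPM and summed levels of 77.4 and 109 CPM (log2 ratio -0.49). The partners Psme1 and Psme2, which form 1 ring, were at -0.92 and 0.05 (both -0.24 by summed CPM) and were read together in 33 cells. Psmf1 was at -0.66 (-0.33 by summed CPM).

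The gene with the largest difference was Psmg3, a chaperone of core assembly encoded on chromosome 5 at 139823592 to 139826885 (GRCm38). It had reads in 15 of 23 Htr3a-line cells (65.2%, exact Clopper-Pearson 95% interval 42.7 to 83.6) and in 6 of 23 Sst-line cells (26.1%, 10.2 to 48.4). Cells of the Htr3a line ran from 0 to 120 CPM (median 28.8), and those of the Sst line from 0 to 47.1 CPM (median 0). The difference was -2.20 (1.26 ± 2.20 against 3.46 ± 2.86), and summed CPM were 6.34 (6.08 to 6.60) and 38.2 (37.6 to 38.9). These intervals take cells or reads as independent, so they do not measure the error of a line difference. Over all scalings and every omission of 1 cell the difference stayed between -2.40 and -2.04, and it was -1.07 with a pseudocount of 10. Of its exon bases, 9.68% overlap Gm26938. The difference equalled the SD of the Sst line to 2 decimals and was below that of the Htr3a line, and the lines overlapped.

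Psmg1 (-0.98), Psmg2 (-0.55) and Psmg4 (-0.21) were also lower in the Sst line, for a median of -0.77 over the 4 Psmg genes. By summed CPM, as log2 ratios, Psmg1 was at -0.24, Psmg2 at 0.11 and Psmg4 at -0.59, so their direction is not shared on that scale. In 9 cells of the Sst line and 3 of the Htr3a line, none of Psmg1, Psmg2 and Psmg3 had a read. More genes were read in Htr3a-line cells (median 8169) than in Sst-line cells (6569), and its part in these counts was not tested. The base chaperones Psmd10, Psmd5 and Psmd9 were at -0.50, 0.20 and 0.15. By summed CPM their log2 ratios were 0.35, 0.39 and 0.20, so the sign of Psmd10 depended on the scale.

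**Figure D3:**
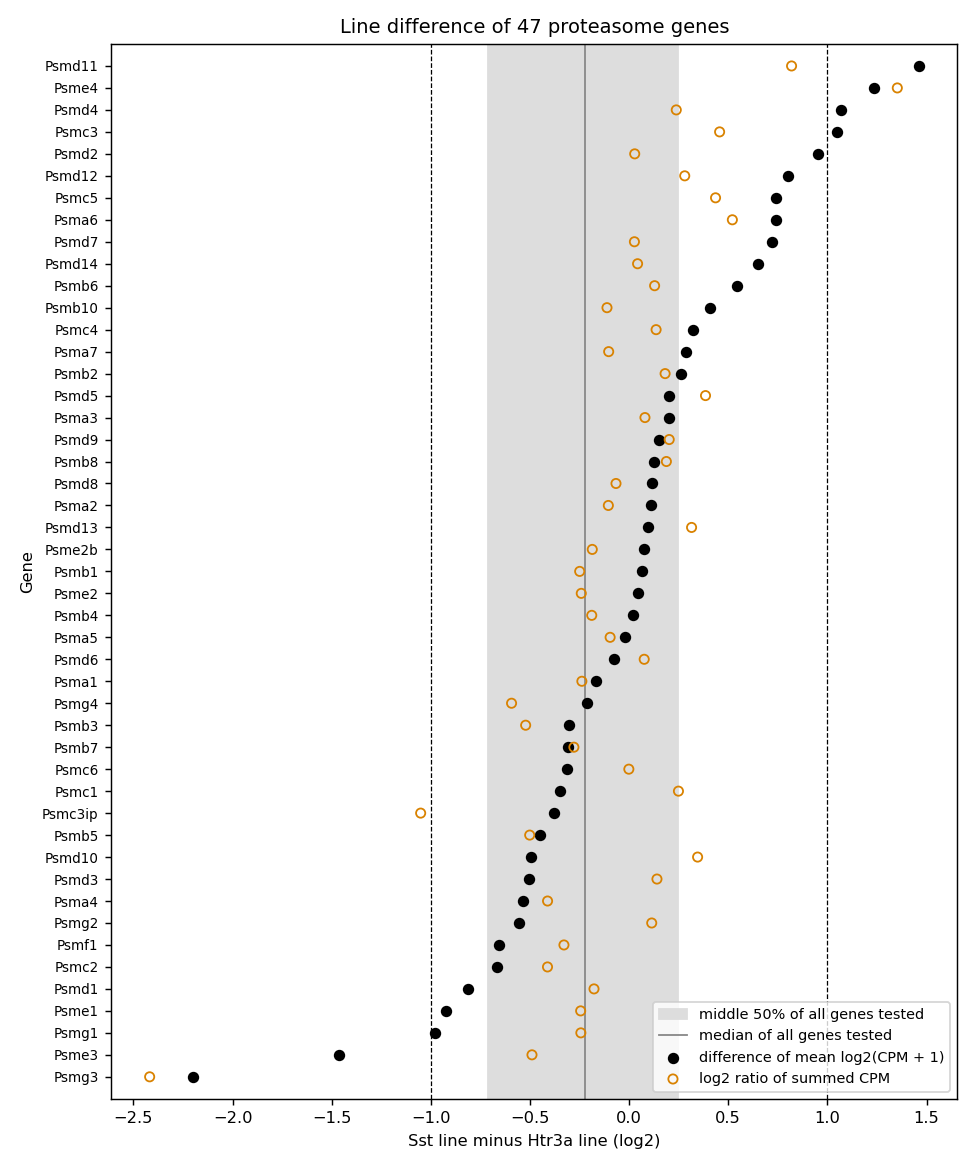
Filled points give the line difference in mean log2(CPM + 1) of the 47 genes and open points the log2 ratio of summed CPM; grey shading is the middle 50% of all genes tested, and dashed lines mark -1 and 1. Of the 6 genes past a dashed line, Psmg3 and Psme4 are also past it by summed CPM.

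CGGAAG, the core letters bound by ETS factors, was the motif held by most promoters of the family. To show where it lies, 250 bases upstream of the annotated start are given for 4 of the genes that hold it. These are Psmd4 (chr3:95042615-95042864, minus strand), Psmd11 (chr11:80428365-80428614, plus strand), Psme3 (chr11:101315963-101316212, plus strand) and Psmg1 (chr16:95990961-95991210, minus strand) in GRCm38.p6, each 5′ to 3′ on the strand of the gene. Psmg1, at -0.98, did not reach the difference of 1 used for a call. Psmg3 and Psme4 also hold the motif and are not printed. Capitals mark CGGAAG or its reverse complement.
Psmd4: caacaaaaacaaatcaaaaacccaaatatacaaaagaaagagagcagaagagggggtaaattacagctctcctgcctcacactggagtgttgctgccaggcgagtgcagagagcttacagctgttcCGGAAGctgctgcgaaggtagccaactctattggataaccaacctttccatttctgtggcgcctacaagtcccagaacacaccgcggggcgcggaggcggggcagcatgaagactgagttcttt
Psmd11: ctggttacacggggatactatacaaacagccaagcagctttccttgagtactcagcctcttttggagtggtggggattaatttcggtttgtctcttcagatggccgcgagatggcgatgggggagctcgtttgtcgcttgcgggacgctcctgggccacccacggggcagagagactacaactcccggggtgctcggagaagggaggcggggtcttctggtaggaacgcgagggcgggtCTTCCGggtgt
Psme3: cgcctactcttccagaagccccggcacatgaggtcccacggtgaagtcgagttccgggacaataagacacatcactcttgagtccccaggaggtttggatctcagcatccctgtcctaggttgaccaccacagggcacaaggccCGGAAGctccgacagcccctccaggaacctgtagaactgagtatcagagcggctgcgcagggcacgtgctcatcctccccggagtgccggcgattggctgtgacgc
Psmg1: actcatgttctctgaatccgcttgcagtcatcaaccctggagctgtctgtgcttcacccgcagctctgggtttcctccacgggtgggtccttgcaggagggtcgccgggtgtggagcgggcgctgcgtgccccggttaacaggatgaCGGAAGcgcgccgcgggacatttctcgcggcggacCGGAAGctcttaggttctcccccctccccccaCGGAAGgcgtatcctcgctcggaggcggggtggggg
The match begins 124 bases before the start in Psmd4, 11 in Psmd11 and 106 in Psme3, and Psmg1 has 3 matches, at 103, 68 and 36 bases.

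Over the 300-base RefSeq promoter windows (250 bases before to 50 after a start, GRCm38.p6), 42 of the 50 genes matched with 45 windows, and 5 motifs were searched on both strands. CGGAAG was in 53.3% of the 45 windows, against 16.9% of all 32851 windows and 32.4% of the 6959 windows of genes read in 23 or more cells. TGACNNNGC, the antioxidant response letters through which Nfe2l1 acts on proteasome genes, was in 13.3%, against 12.4% and 14.3%. CCAAT was in 33.3% (37.4% and 36.5%), the heat shock letters TTCNNNGAA in 6.67% (8.30% and 5.86%), and the interferon response letters, TTTC and TTTC with any 2 bases between, in 11.1%, or 5 windows (3.44% and 2.72%). Those 5 windows belong to Psmb3, Psmd4, Psmd9, Psme1 and Psmg4. The median GC content was 57.3% in these windows, 61.7% in those of genes read in 23 or more cells and 52.7% in all. No motif was tested, and a match shows letters only.

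The 3 immunoproteasome subunits were read at very different rates. Psmb10 (chromosome 8, 105935735 to 105938444, GRCm38) replaces Psmb7 and was read in 34 of 46 cells, 16 of the Htr3a line (69.6%, 47.1 to 86.8) and 18 of the Sst line (78.3%, 56.3 to 92.5). Psmb8 (chromosome 17, 34197721 to 34201454) replaces Psmb5 and was read in 10 cells, 5 of each line (21.7%, 7.46 to 43.7). Psmb9 (chromosome 17, 34181987 to 34187764) replaces Psmb6 and was read in 3 cells, with 464 reads in Sst line replicate 4, 70 in Htr3a line replicate 3 and 1 in Htr3a line replicate 20.

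Psmb10 ran from 0 to 430 CPM in Htr3a-line cells (median 49.3) and from 0 to 442 CPM in Sst-line cells (median 63.4), and the lines overlapped (difference 0.41, SDs 3.24 and 2.87). Summed over cells and scaled by exon length, Psmb10 made up 57.5% of Psmb10 plus Psmb7 in the Htr3a line and 60.3% in the Sst line. That share depends on the length used: it was 37.3% and 40.1% with the transcript of the longest coding sequence, and 40.2% and 43.1% of the reads themselves. In contrast, Psmb8 made up 1.69% and 2.72% of Psmb8 plus Psmb5 by exon length, and Psmb9 0.0238% and 0.133% of Psmb9 plus Psmb6. These shares depend on the length too. By the transcript of the longest coding sequence they were 3.45% and 5.49% for Psmb8, and 0.0275% and 0.153% for Psmb9. Psmb10 shares none of its 31-base words with another annotated gene.

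Together the 3 genes took 9.74% of the 6 catalytic genes in the Htr3a line and 10.4% in the Sst line, with single cells from 0% to 49.7% and from 0% to 22.3%. The highest share was in Htr3a line replicate 21, where Psmb10 reached 430 CPM, Psmb6 323 CPM and Psmb5 74.6 CPM while Psmb7 had no read. By transcript length the shares were 7.84% and 7.94%. Of the 3 genes, at least 1 was read in 35 cells.

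Microglial transcripts moved with Psmb8. In the 10 cells that read Psmb8 (18.2 to 196 CPM), the microglial markers summed to 945 to 10876 CPM, and all 10 also read Psmb10. Of the 34 cells with at least 100 microglial CPM, 10 read Psmb8, and of the 12 cells below that, 0 did. Psmb10 was read in 28 of the 34 and in 6 of the 12, so 6 cells with few microglial reads held Psmb10. Over cells, log2(CPM + 1) of Psmb8 and of the summed markers had an r of 0.44 (rho 0.48, 46 cells, 0.46 without the 2 cells farthest from the median), against 0.30 for Psmb10 (rho 0.10, 0.14 without 2 cells); both values share the library's total. The part of microglial RNA in the Psmb8 reads was not tested.

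Psmb11, the thymic counterpart of Psmb5, had 672 reads (40.2 CPM) in Sst line replicate 21 and 1 read in Sst line replicate 8. In Sst line replicate 21 Psmb5 had 0 reads, one of 2 cells without Psmb5. The genes are neighbours on chromosome 14 on opposite strands, Psmb5 at 54614119 to 54618022 and Psmb11 at 54621433 to 54629556 (GRCm38). Of the exon bases of Psmb11, 0% overlap another annotated gene. Of its 31-base words, 5.45% are shared with other annotated genes, 2680 in number.

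**Figure D4:**
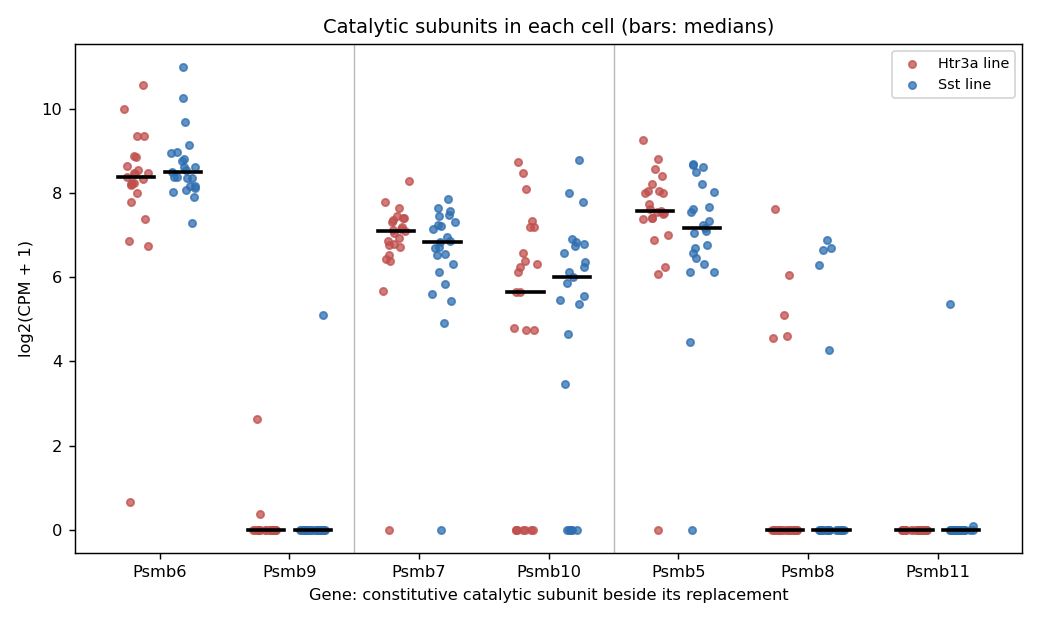
log2(CPM + 1) of each constitutive catalytic gene beside its replacement, 1 point per cell and a bar at the median of each line. Of the 34 cells with Psmb10 reads, 26 lie within the range of the Psmb7 points above 0, 5 below and 3 above it, whereas Psmb8, Psmb9 and Psmb11 are at 0 in most cells of both lines.

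Correlations of the subunits over cells were weak and not the same in both lines. The 465 pairs of the 31 subunits had a median Pearson r of 0.18 over 46 cells, beside 0.10 for all pairs of the 7094 genes read in 23 or more cells. In the Htr3a line the median was 0.29 (0.14 for all pairs) and in the Sst line 0.02 (0.06). Without Htr3a line replicates 4 and 20 the Htr3a median was 0.05 (0.08 for all pairs), so the larger value rests on these 2 cells. By rank (Spearman), the medians were 0.11 in the Htr3a line and 0.03 in the Sst line. All pairs share the library's total and the cells in which much was missed.

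Within each line, pairs of the core were more alike than pairs of the cap. The median r was 0.47 in the Htr3a line and 0.15 in the Sst line, against 0.23 and -0.01 within the cap. For the core it was 0.36 in the Htr3a line without replicates 4 and 20, and 0.41 and 0.11 without the 6 cells whose core to cap ratio was above 3. Without those 6 cells the cap was at 0.31 and -0.01, and pairs of a core and a cap gene at 0.35 and 0.02. Over the 40 remaining cells of both lines the order was not kept: 0.18 within the core, 0.19 within the cap and 0.21 between them. Psma2 and Psmb6 had the highest r in the Htr3a line (0.95), where replicate 20 had 0 reads of Psma2 and 2 of Psmb6. In the Sst line it was Psma5 and Psmb4 (0.95), where replicate 3 had 0 reads of both and replicate 16 had 1 read of Psma5 and 0 of Psmb4. Psmb6 and Psmd2, a core and a cap gene, were at -0.76 over Sst-line cells and 0.47 over Htr3a-line cells. Psmc1, Psmc2, Psmd1 and Psmb7 had a median r below 0 with the other subunits in both lines.

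**Figure D5:**
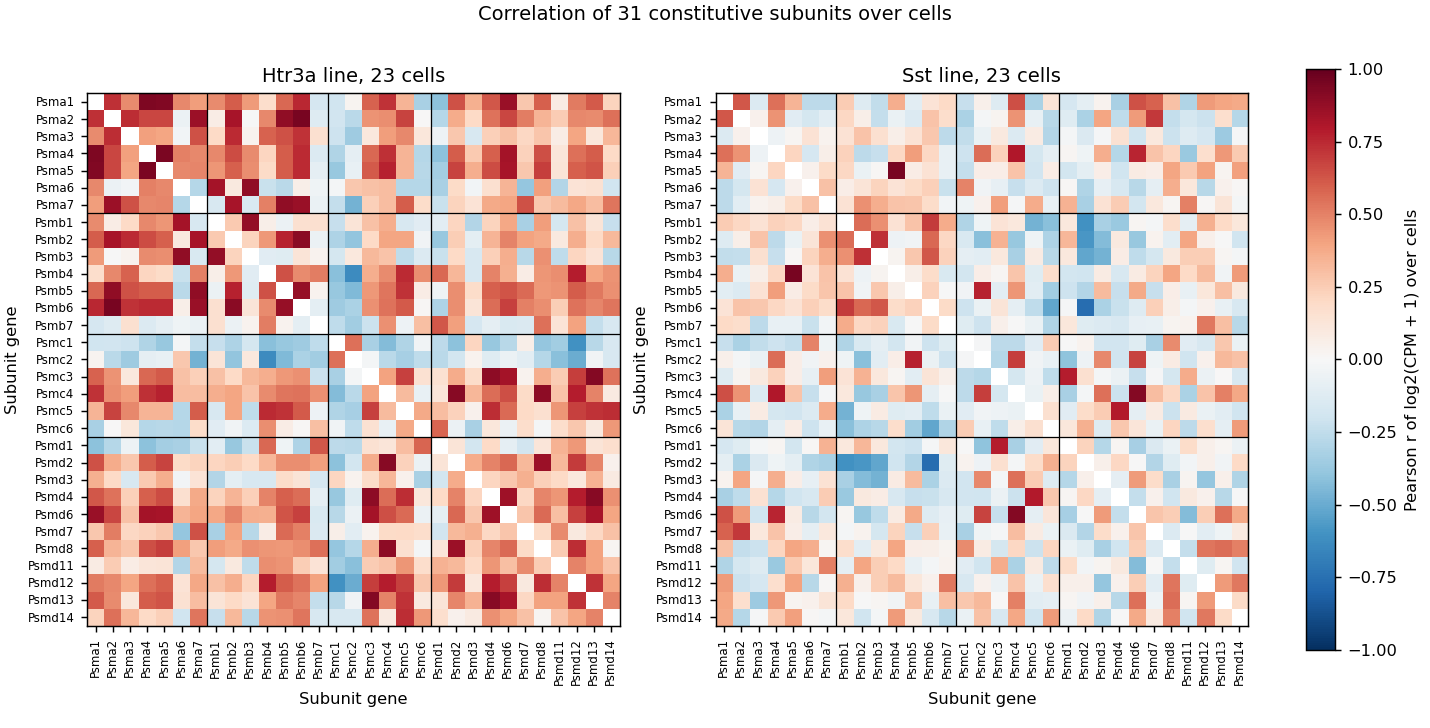
Pearson r of log2(CPM + 1) over the 23 cells of each line for all pairs of the 31 subunits, with black lines between alpha, beta, ATPase and non-ATPase genes. Red prevails in the Htr3a line (median 0.29) and pale colours in the Sst line (median 0.02).

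Genes that work with the proteasome gave no common direction. Their calls are read beside the 4.24% of all genes that were higher by 1 or more and the 14.9% that were lower. Of 6 further components and assembly factors, 0 differed by 1 or more: Pomp, which matures the core, was at -0.18, and Adrm1, a ubiquitin receptor of the cap, at 0.18. The largest differences there were in Ipo9 (-0.56) and Akirin2 (-0.44), which take part in the import of proteasomes into the nucleus, and in AI314180 (-0.30). Among 4 proteasome-bound deubiquitinases and ligases, Ube3c, a ligase, was lower by 1 or more in the Sst line (-1.16), and Usp14 and Uchl5, both deubiquitinases, were at 0.64 and 0.53. By summed CPM, as log2 ratios, these 3 genes were at -0.34, 0.04 and -0.03.

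Of 8 regulators of proteasome genes with a mean of at least 0.5, Nfe2l1, the factor that raises their transcription when proteasomes fail, was higher by 1.34 (5.80 ± 2.97 against 4.46 ± 3.35, summed 177 against 106 CPM). Ngly1, the enzyme that removes sugars from that factor, was lower (-1.51), with summed levels of 57.4 CPM (Htr3a line) and 50.4 CPM (Sst line), and Bach1 was at -0.95. The summed subunit level and Nfe2l1 had an r of 0.02 over 46 cells (rho 0.05, 0.04 without the 2 cells farthest from the median).

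Of the ubiquitin genes, Ubb was at 0.59 (summed level 4012 CPM in the Sst line, 3256 CPM in the other). Uba1, the main activating enzyme, was at -0.87. Of 8 shuttle and delivery factors, Sqstm1 (1.16) and Ubqln4 (1.06) were higher and Rad23b (-1.05) lower by 1 or more, but their log2 ratios of summed CPM were 0.14, 1.36 and -0.55. Of 6 genes of antigen presentation and interferon response with a mean of at least 0.5, H2-D1 (-1.40) and H2-K1 (-1.11) were lower by 1 or more and 0 were higher. By summed CPM the log2 ratios of these 2 genes were -0.20 and -2.28. H2-K1 was read in 7 Htr3a-line cells and 1 of the Sst line; Tapbp and B2m were at -0.64 and 0.12.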

How the data were processed

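The authors deposited raw read counts per gene for each cell; per the submitters' processing notes they used Trimmomatic, STAR, featureCounts and the build GRCm38, with versions, annotation and strandedness not given in the sources used here. The authors also deposited a normalized signal, in which every non-zero value (100%) equalled the count over a cell-specific factor to 0.1%. No molecular identifiers are named, so intervals and floors cover counting error only.

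Counts were scaled to CPM with Python 3.11.15 and pandas 2.3.3 and taken as log2(CPM + 1). All 50 genes matched GENCODE M21 by symbol, which gave lengths and positions, and had identical counts in both count tables. A difference was called at 1 or more among genes with a mean of at least 0.5. Each library was counted once: 0 of 1035 pairs were identical. Size factors for alternatives came from edgeR 4.0.16 and DESeq2 1.42.0. The calculations were tested on simulated counts.

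Every gene of the family is named. The rule takes the highest and lowest level per length of each group, up to 8 differences in each direction among genes read in at least 12 cells, the catalytic genes, and up to 3 genes of each other pathway list, of which 1 is not reported here; Pomp, Adrm1, H2-K1 and the pairs of correlated genes were chosen after their values were seen. The genes and lists were chosen with earlier results of these data known. Replicate numbers only name cells. Alternatives were other scalings, pseudocounts, minima and lengths, thinning, summed CPM, medians, and leaving out cells.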

Additional observations from a re-analysis of the deposited data

How the results depend on the processing

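The count of proteasome genes higher in the Sst line by 1 or more was 4, and it was 0 with a pseudocount of 10, 2 with TMMwsp size factors, 2 after thinning, 1 by summed CPM, 1 by medians, 2 without Htr3a line replicates 4 and 20, and 7 without the 6 cells of high core to cap ratio. The count lower was 2, and it was 1 with a pseudocount of 10, 4 by medians and 4 without Htr3a line replicates 4 and 20. Leaving out 1 cell at a time gave 2 to 6 higher and 2 to 5 lower. Omissions of several cells and the transcript lengths were chosen after seeing the data. The immunoproteasome share with 1 cell left out was 8.67 to 10.2% (Htr3a line) and 9.18 to 10.9% (Sst line). The cause of the 10 moves under other settings was not tested. The other 72 of 82 comparison values stayed within 1 SD (counts within 1.5 times), as did 497 of 500 single-gene values. These SDs are between cells, or between pairs for correlations, and are wide. A value can change sign and stay within 1 SD, as Psma5 did (-0.02, and up to 0.05 with other scalings). These tallies therefore do not show that the values are stable. No paired analysis was possible because the replicate numbers only name cells and the labels name no animal. Psmb9 and Psmb11, with reads in 3 and 2 cells, and Psma8, with 0, allow no comparison of lines.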
